A study of Mus musculus with 8 samples.

Results

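The STAT and SOCS genes described here are 9 genes taken by symbol: the transcription factor genes Stat3, Stat4, Stat5a, Stat5b and Stat6, and the feedback inhibitor genes Socs1, Socs2, Socs3 and Cish. All 9 were found in each of the 8 gene count tables, among 53657 entries that the colon and culture tables share by symbol, and all 9 passed the filter on low counts in every test. The RNA-seq study removed Rora, which encodes the nuclear receptor RORα, from mouse T cells. Control cells carried the floxed allele alone (Rora fl/fl) and knockout cells carried Cd4-cre as well (Cd4-cre Rora fl/fl), which deletes the floxed part in T cells in general and not in CD4+ cells alone. In the colitis setting, Tcrbd-/- recipients, which lack T cells of their own but keep B cells and innate cells, received naïve CD4+ T cells of one genotype. After 6 weeks, colon CD4+ T cells were collected, with 2 libraries per genotype. In the culture setting, naïve CD4+ T cells were activated through CD3 and CD28 and polarised to Th17 cells over 4 days in 1 of 2 cytokine mixes, TGF-β plus IL-6 (the TGF-β mix) or IL-23 plus IL-1β plus IL-6 (the IL-23 mix), with 1 library for each combination of mix and genotype. All 8 samples, controls included, were restimulated for 2 hours with ionomycin and the phorbol ester PMA, and RNA was then extracted. The labels give neither the ages of the mice nor whether 2 colon libraries of a genotype came from separate mice, so the spread behind each p-value may be technical in part.

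Cytokines such as IL-2, IL-4, IL-6, IL-12 and IL-23 signal through receptors that carry JAK kinases. The kinases phosphorylate STAT proteins, which then pair, enter the nucleus and bind DNA. In helper T cells STAT3 lies below IL-6 and IL-23 and is needed for the Th17 programme, STAT4 lies below IL-12, STAT5A and STAT5B lie below IL-2, and STAT6 lies below IL-4. CIS (from Cish) and the SOCS proteins are made in response to STAT activity and act back on the receptor and its kinases: SOCS1 and SOCS3 inhibit JAK kinases, SOCS3 binds the gp130 chain of the IL-6 receptor, and CIS and SOCS2 are induced by STAT5. RNA counts measure the transcripts of these genes and not the phosphorylation of the proteins.

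In mm10 with the GENCODE annotation, 4 members lie on chromosome 11: Stat5b (chr11:100780731-100850724, minus strand), Stat5a (chr11:100859351-100885169, plus strand), Stat3 (chr11:100885098-100939540, minus strand) and Socs3 (chr11:117966079-117970047, minus strand). The first 3 stand side by side: 8626 bp separate Stat5b from Stat5a, and the ends of Stat5a and Stat3, on opposite strands, overlap by 72 exonic bases. Stat4 lies at chr1:51987148-52107189, Cish at chr9:107296026-107302784, Socs2 at chr10:95385362-95417180, Stat6 at chr10:127642986-127660957 and Socs1 at chr16:10782240-10785536. Stat5a and Stat5b are close paralogs: 8.21% of the distinct 50-base stretches of Stat5a transcripts also occur in Stat5b transcripts, and 11% the other way. For stretches of 100 bases the shares were 3.44% and 4.79%, and the read length is not given. Reads from shared stretches could be placed on either gene.

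The promoters of the members bear on the comparisons because STAT proteins bind TTCNNNGAA and RORα binds sites that hold AGGTCA. RefSeq promoters (GRCm38.p6, 300 bases each: 250 before and 50 from the transcript start on) were at hand for 8 member genes and had no entry for Socs2. TTCNNNGAA, which reads the same pattern on both strands, occurred in 2 of the 8 genes, against 9.55% of 27025 genes in the table. In Cish it occurred 2 times, at positions 0 and 11 counted from the first transcribed base as 0 (window chr9:107296654-107296683, plus strand), and in Socs3 once, at position -154 (window chr11:117969501-117969530, minus strand). The same pattern with a spacer of 4 bases occurred in 0 of the 8 genes and in 8.01% of all genes. The 2 windows are printed because Cish and Socs3 are the feedback genes of STAT5 and STAT3, with the pattern in capitals.
Cish: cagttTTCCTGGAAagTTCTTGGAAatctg
Socs3: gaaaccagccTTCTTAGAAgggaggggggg
AGGTCA or its reverse complement TGACCT occurred in 4 of the 8 genes, against 18.1% of all genes: Stat4 (chr1:51987067-51987096, plus strand), Stat5a in both of its promoters (chr11:100859598-100859627 and chr11:100860428-100860457, plus strand), Stat5b (chr11:100822588-100822617, minus strand) and Stat6 (chr10:127642805-127642834, plus strand). The windows follow because RORα is the factor removed, with the 6 bases in capitals.
Stat4: ctggcctcctgtAGGTCAtaggagcaccta
Stat5a, first promoter: tgtgacccttctAGGTCActggatggactc
Stat5a, second promoter: atcggaggcagcTGACCTttgaggaggaaa
Stat5b: gtctgaagcagcTGACCTtttagaaggaaa
Stat6: ggattagagtaaAGGTCAgcctccctccag
These matches describe letters only: no binding was measured.

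Library totals ran from 13176752 to 14967756 counts in colon and from 15252700 to 15922696 in culture. Rora itself checked the labels. In colon, Rora stood at 252 and 290.3 CPM in the control libraries and at 133 and 149 CPM in the knockout libraries, where CPM is the read count scaled to a common library total after TMM scaling, which sets the libraries level on the bulk of their genes. In culture the control and knockout libraries held 499 and 189 CPM in the TGF-β mix, and 152 and 59.0 CPM in the IL-23 mix. The knockout library was lower in each pairing. Counts cover the whole gene, so transcripts without the deleted part are still counted. Each of the 16 conventional T cell markers was detected in every library.

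In colon CD4+ T cells, 8 of the 9 members passed the test between knockout and control, at an adjusted p under 0.05 in edgeR's quasi-likelihood fit, where 39.5% of 13101 genes did. Stat3, Stat5a, Stat5b, Stat6, Socs3 and Cish were lower in the knockout libraries and Stat4 and Socs2 were higher, while Stat6 turned to a log2 fold change of 0.02 when libraries were scaled on T cell marker counts. Of all genes tested, 19.9% passed as lower and 19.6% as higher. The median log2 fold change of the members was -0.47, and that of all genes tested was 0.01.

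**Figure D1:**
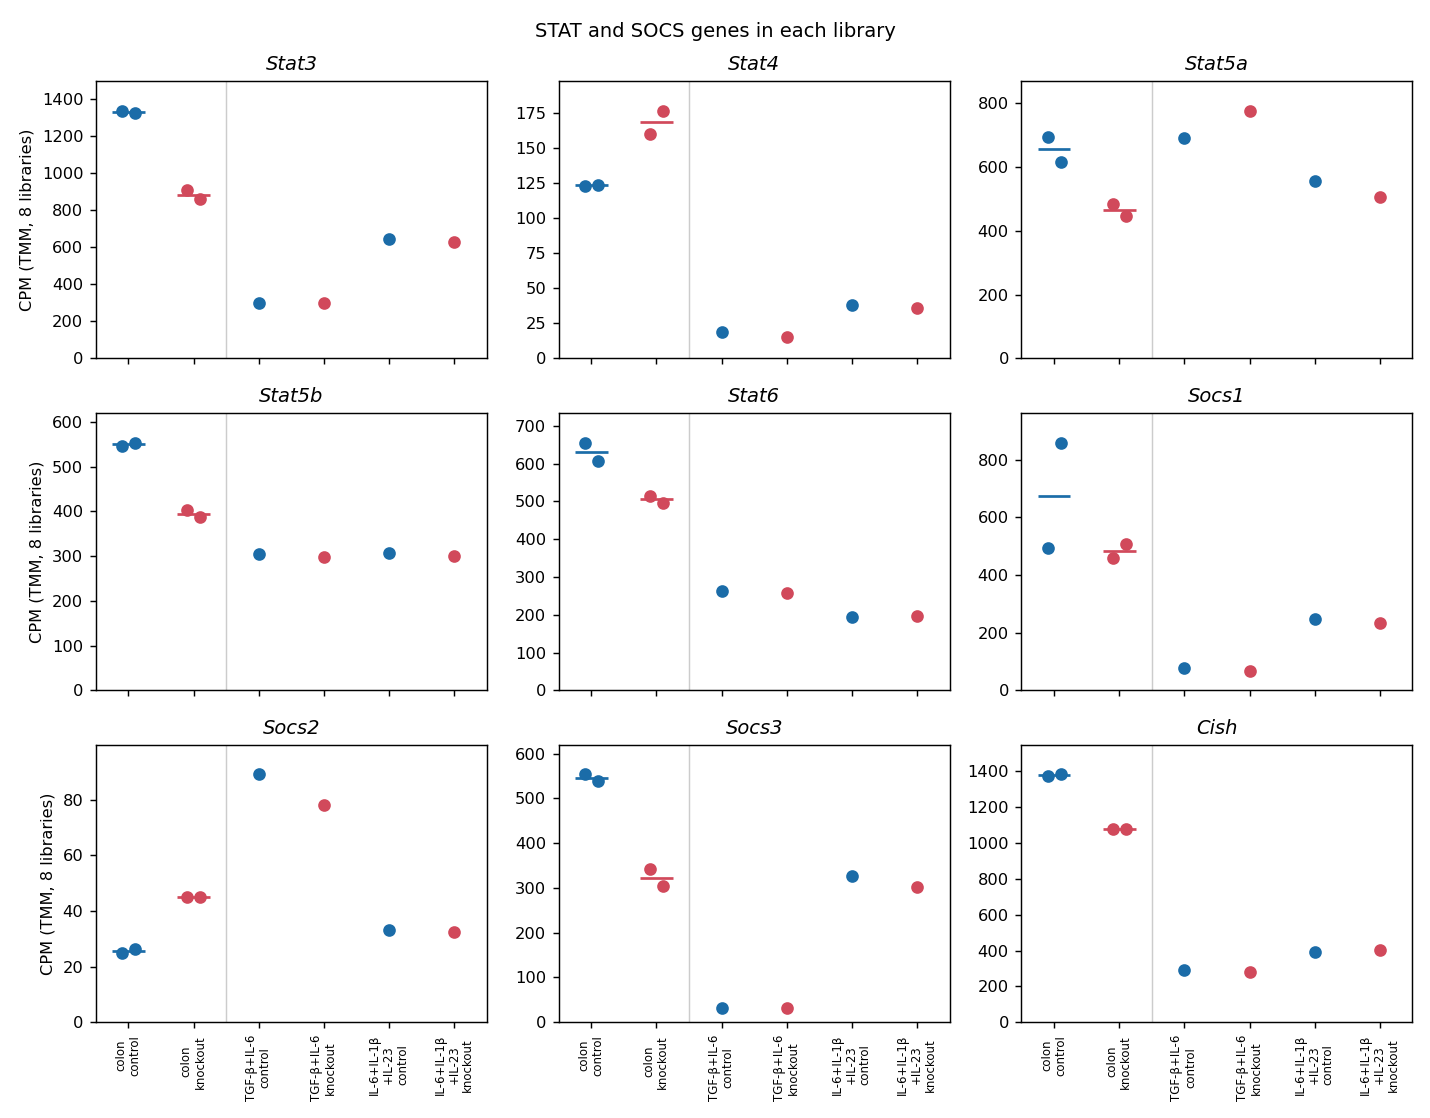
Level of each of the 9 genes in every library, as CPM after TMM scaling over all 8 libraries (linear axis from 0). Points are libraries (blue control, red knockout) and bars are means of the 2 colon libraries. In colon the 2 control libraries lie above both knockout libraries for Stat3, Stat5a, Stat5b, Stat6, Socs3 and Cish and below them for Stat4 and Socs2, and 1 control library sets the mean of Socs1.

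Stat3, the STAT below IL-6 and IL-23, stood at 1211 and 1195 CPM in the control colon libraries and at 824 and 781 CPM in the knockout libraries. Its log2 fold change was -0.58 ± 0.08 (SE, 2 against 2 libraries), which is 1.499-fold lower, with an edgeR adjusted p of 1.6e-04. The gap between the genotypes was far wider than that within either. Stat4, which carries IL-12 signals, moved the other way, from 111 and 112 CPM to 145 and 160.2 CPM. The rise of 0.45 ± 0.08 on the log2 scale had an edgeR adjusted p of 0.0012.

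Both STAT5 genes were lower in the knockout libraries. Stat5a stood at 628 and 554 CPM in control and 438 and 405 CPM in knockout cells, a log2 fold change of -0.49 ± 0.09 (SE) with an edgeR adjusted p of 0.0011. Stat5b stood at 494 and 499 CPM against 365 and 351 CPM, a log2 fold change of -0.47 ± 0.08 (SE) with an edgeR adjusted p of 5.6e-04. Stat5a held 56.0% and 52.6% of the summed Stat5a and Stat5b counts in control libraries and 54.6% and 53.5% in knockout libraries, and these ranges overlap. Stat6, below IL-4, showed the smallest fall that passed. It went from 593 and 546 CPM to 466 and 450.4 CPM, a log2 fold change of -0.31 ± 0.08 (SE), with an edgeR adjusted p of 0.0083 that became 0.052 without control replicate 1.

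Among the feedback inhibitors, Socs3 showed the largest fall of the members. It stood at 500.5 and 486 CPM in control and at 309 and 275 CPM in knockout libraries, a log2 fold change of -0.76 ± 0.08 (SE), 1.69-fold lower, with an edgeR adjusted p of 4.9e-05. Cish stood at 1242 and 1247 CPM in control and 978 and 976 CPM in knockout cells. Its log2 fold change was -0.35 ± 0.07 (SE), with an edgeR adjusted p of 0.0033. Socs2, which like Cish is known as a STAT5 target, went the opposite way, from 22.3 and 23.6 CPM to 40.8 and 40.6 CPM. That rise of 0.82 ± 0.10 on the log2 scale, 1.77-fold, had an edgeR adjusted p of 9.5e-05.

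Socs1, which inhibits JAK kinases below interferon and IL-2 receptors, was the member that did not pass. Its control libraries lay far apart, at 445 and 775 CPM, and its knockout libraries stood at 416 and 462 CPM, so the groups overlapped. The log2 fold change was -0.48 ± 0.18 (SE, 95% interval -0.88 to -0.07), with an edgeR adjusted p of 0.060. The library decides the value: without control replicate 1 it was -0.83, and without control replicate 2 it was -0.03. Without knockout replicate 1 or 2 the log2 fold changes were -0.43 and -0.57. With no filter on low counts Socs1 passed, at -0.50 (edgeR adjusted p 3.1e-08).

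**Figure D2:**
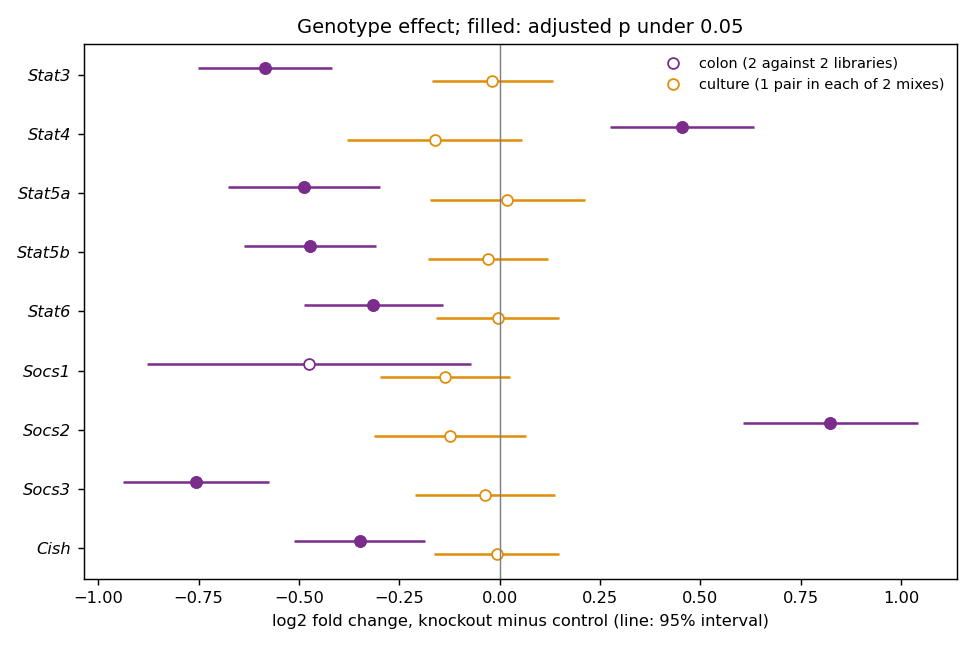
Log2 fold change, knockout minus control, with its 95% interval for the 9 members in colon (purple) and culture (orange). Filled points passed an edgeR adjusted p under 0.05: 8 of 9 in colon and 0 of 9 in culture, with Stat4 and Socs2 right of 0 in colon and the sign of Stat6 there turning with T cell marker scaling.

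The colon libraries also differed in their cell type markers. The 16 conventional T cell markers summed to 13380 to 13850 CPM in control and 10730 to 10870 CPM in knockout libraries, and 12 of the 16 passed the colon test as lower, 1 passed as higher (Cd28, at 0.25, named after its value was seen) and 3 did not pass, where 19.9% of all genes passed as lower and 19.6% as higher. The 9 B and plasma cell markers summed to 584 to 596 CPM in control and 2089 to 2272 CPM in knockout libraries, with up to 2 of them at 0 in a control library and none at 0 in the knockout libraries. Of 7 of them tested, 6 rose and 0 fell. Igha and Igkc held most of each sum. Igha stood at 385 and 379 CPM against 1414 and 1505 CPM, and Igkc at 166 and 160 CPM against 502 and 574 CPM. Cd79a stood at 0.49 and 0.57 CPM against 3.4 and 2.1 CPM. Ms4a1 was at 0 in both control libraries and at most 0.90 CPM in knockout libraries. Epithelial markers summed to 46.9 to 50.7 CPM against 130.3 to 131.6 CPM, and fibroblast markers to 22.3 to 27.9 CPM against 86.0 to 92.9 CPM. The macrophage and monocyte list ran from 51.8 to 55.2 CPM against 74.5 to 76.0 CPM, and the dendritic cell list, which holds MHC class II genes, from 377 to 386 CPM against 564 to 585 CPM. Of 8 dendritic cell genes tested, 5 rose and 2 fell. Zbtb46 stood lower in knockout libraries (12.3 and 13.4 CPM against 9.26 and 8.78 CPM), as did Xcr1 (39.9 and 36.7 CPM against 29.1 and 33.3 CPM). Some lists had sums that were not higher in the knockout libraries, with most of each sum in 1 gene. Mast cell and basophil markers summed to 199 CPM in both control and to 108 and 122 CPM in knockout libraries. Kit held 198.5 and 198.6 CPM of this against 100.8 and 114.5 CPM, and of 3 genes tested 2 rose and 1 fell. CD8 T cell markers summed to 19.6 to 21.6 CPM against 3.06 to 3.81 CPM. Cd8a fell, and Cd8b1 (1.46 and 2.07 CPM against 1.02 and 1.74 CPM) did not pass. Endothelial markers summed to 99.4 to 105 CPM against 99.0 to 103 CPM. Pecam1 held 98.5 to 104 CPM of this against 95.1 to 99.3 CPM, and of 3 genes tested 2 rose and 0 fell. The natural killer and innate lymphoid list stood at 41.1 to 44.4 CPM against 59.7 to 62.0 CPM, and the neutrophil list at 4.38 to 6.07 CPM against 6.67 to 7.56 CPM. Of 4 natural killer and innate lymphoid genes tested, 2 rose and 1 fell. Klrk1 stood at 16.08 and 15.49 CPM against 43.17 and 43.85 CPM, and Eomes at 22.98 and 25.19 CPM against 14.23 and 14.85 CPM. The part of these other cell types in the members' values was not tested. In such bulk samples, fewer cells of a type and less RNA per cell cannot be told apart.

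Set against T cell marker counts instead of all genes, the members split. Per 1000 T cell marker counts, Stat3 stood at 87.4 and 89.3 in control and at 75.8 and 72.8 in knockout libraries, and Socs3 at 36.1 and 36.3 against 28.4 and 25.6. On that scale both were still lower, with log2 fold changes of -0.25 ± 0.07 (edgeR adjusted p 0.018) and -0.42 ± 0.08 (edgeR adjusted p 0.0019). Stat4 and Socs2 were higher by 0.79 ± 0.08 (edgeR adjusted p 7.9e-05) and 1.16 ± 0.10 (edgeR adjusted p 3.0e-05). Stat5a at -0.15, Stat5b at -0.14, Socs1 at -0.15, Cish at -0.01 and Stat6 at 0.02 did not pass. Cish stood at 89.7 and 93.2 counts per 1000 in control and 90.03 and 90.98 in knockout libraries.

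This scale moved all genes, not the members alone. The median log2 fold change of all genes tested was 0.01 with TMM, 0.21 with library totals and 0.35 with T cell markers, and every member other than Stat4 and Socs2 lay below that median on each of the 3 scales. With library totals 6 members passed, and Stat6 (-0.12, edgeR adjusted p 0.23) and Cish (-0.16, edgeR adjusted p 0.11) no longer did. Of 13101 genes tested, 5173 passed with TMM, 5546 with library totals and 6470 with T cell markers. As higher, 2566, 4284 and 5780 passed in the same order. The share of higher genes among those called was 49.6% with TMM, 77.2% with library totals and 89.3% with T cell markers. The falls of Stat3 and Socs3 and the rises of Stat4 and Socs2 passed on all 3 scales.

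**Figure D3:**
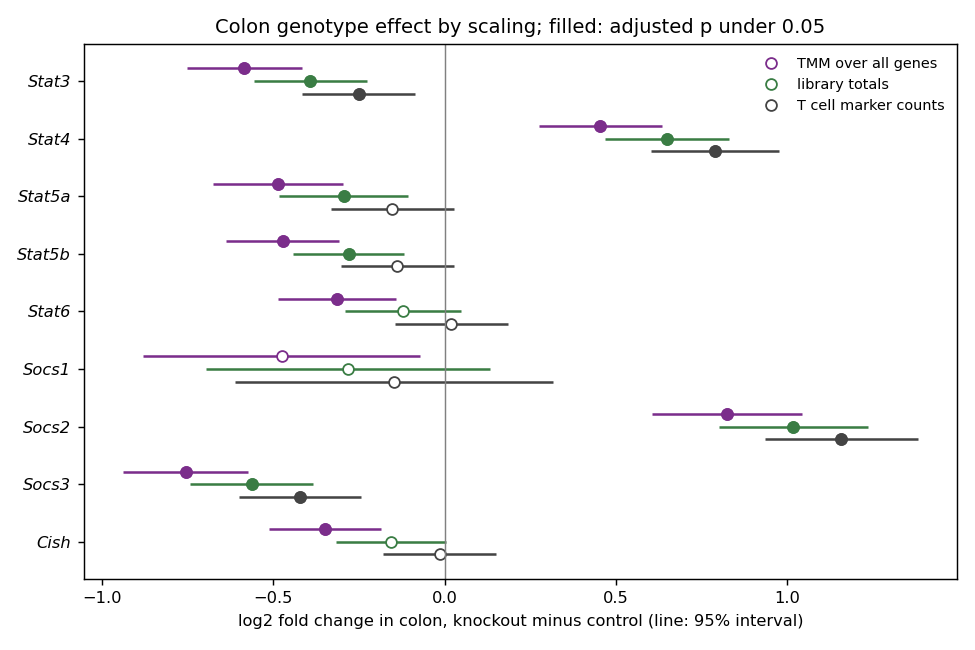
Log2 fold change of the 9 members in colon, knockout minus control, with 95% intervals on 3 scales: TMM over all genes (purple), library totals (green) and conventional T cell marker counts (grey). Filled points passed an edgeR adjusted p under 0.05. Stat3, Stat4, Socs2 and Socs3 are filled on all 3 scales, and Stat6 crosses to 0.02 on the T cell marker scale.

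In cultured Th17 cells the genotype comparison, with the 2 mixes as the repeats, passed 0 of the 9 members, where 0.0286% of 13983 genes passed, which is 4 genes (0.0143% as higher and 0.0143% as lower). At an unadjusted p under 0.05 there were 500 of the 13983 genes in edgeR. None was a member, but at so small a share 9 genes could well hold none. DESeq2 called 7 genes and no member. The members' log2 fold changes ran from -0.16 for Stat4 to 0.02 for Stat5a, with a median of -0.03, and that of all genes tested was 0.003. For Stat3 the 95% interval ran from -0.17 to 0.13, for Socs3 from -0.21 to 0.14 and for Cish from -0.16 to 0.15. For Socs2 it ran from -0.31 to 0.06 and for Stat4 from -0.38 to 0.06, so that neither interval reached the rise these genes showed in colon.

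Within a mix there was 1 library against 1, so the ratios have no test and their intervals cover counting error only. No member differed by 2-fold or more between genotypes in either mix. Of all genes reaching 5 CPM, 0.24% of 9589 did so in the TGF-β mix (0.0939% higher and 0.146% lower) and 0.29% of 10003 in the IL-23 mix (0.2% higher and 0.09% lower). Stat5a gave opposite ratios in the 2 mixes. In the TGF-β mix it stood at 753 CPM in control and 846 CPM in knockout cells, a log2 ratio of 0.17 (counting interval 0.13 to 0.20). In the IL-23 mix it stood at 604 and 552 CPM, a log2 ratio of -0.13 (counting interval -0.17 to -0.09). Stat5b, its paralog, had ratios of -0.03 in both mixes.

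The test of the difference itself, colon effect minus culture effect in 1 fit of all 8 libraries, passed for 7 of the 9 members, where 17.3% of 14886 genes passed (7.73% as higher and 9.57% as lower). Stat3 (-0.57 ± 0.11), Stat5a (-0.51 ± 0.13), Stat5b (-0.45 ± 0.10), Socs3 (-0.73 ± 0.12) and Cish (-0.35 ± 0.11) were shifted down in colon relative to culture on the log2 scale. Stat4 (0.61 ± 0.12) and Socs2 (0.94 ± 0.13) were shifted up. The edgeR adjusted p ran from 4.0e-04 for Socs2 to 0.035 for Cish, and it was 0.059 for Stat6 and 0.37 for Socs1. Cish did not pass without any one of the 4 colon libraries (edgeR adjusted p 0.059 to 0.081), and Stat5a did not pass without knockout replicate 2 (edgeR adjusted p 0.054). Stat6 passed with DESeq2 (adjusted p 0.036), and Socs1 passed with no filter on low counts, at -0.36 (edgeR adjusted p 0.034). Without control replicate 1 Socs1 was at -0.70. With library totals 4 members passed (Stat3, Stat4, Socs2 and Socs3), where 2832 of 14886 genes did. With T cell marker scaling 3 passed (Stat4, Socs2 and Socs3), where 3562 genes did, 3243 of them as higher. The share of higher genes among those called went from 44.7% to 80.0% and 91.0%.

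Between the cytokine mixes the members' log2 fold changes ran from -1.35 to 3.33. Between the IL-23 mix and the TGF-β mix, with the 2 genotypes as the repeats, 8 of the 9 members passed, where 69.8% of 13983 genes passed (35.8% as higher and 34% as lower). Socs3, Socs1, Stat4, Stat3 and Cish were higher in the IL-23 mix, and Socs2, Stat5a and Stat6 were lower. The members' median log2 fold change was 0.49, and that of all genes was 0.02. Within each genotype 5 members differed by 2-fold or more (4 higher, 1 lower), where 28.1% of 10246 genes did in control (15.1% higher and 13% lower) and 27.5% of 10252 in knockout pairs (15.1% higher and 12.4% lower).

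Socs3, the inhibitor that binds gp130, stood at 33.4 and 34.8 CPM in control and knockout cells in the TGF-β mix, and at 355 and 331 CPM in the IL-23 mix. This was 10.04-fold higher, a log2 fold change of 3.33 ± 0.08 (SE), with an edgeR adjusted p of 3.2e-08. Both pairs gave the same picture, at log2 ratios of 3.40 in control and 3.24 in knockout cells. Socs1 rose from 85.0 and 74.0 CPM to 268 and 254 CPM, a log2 fold change of 1.72 ± 0.07 (SE), with an edgeR adjusted p of 3.4e-07. Socs2 went the other way, from 97.4 and 85.1 CPM to 36.2 and 35.4 CPM, a log2 fold change of -1.35 ± 0.08 (SE), 2.54-fold lower, with an edgeR adjusted p of 2.2e-06. Cish rose by less, from 316 and 303 CPM to 429 and 443 CPM, a log2 fold change of 0.49 ± 0.07 (SE), with an edgeR adjusted p of 2.4e-04. Cish and Socs2, both known as STAT5 targets, differed in sign between the mixes.

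Of the STAT genes, Stat3 stood at 328 CPM in both genotypes in the TGF-β mix and at 706 and 688 CPM in control and knockout cells in the IL-23 mix. This was 2.13-fold higher, a log2 fold change of 1.09 ± 0.07 (SE), with an edgeR adjusted p of 2.1e-06. Stat4 rose from 20.4 and 17.1 CPM to 41.7 and 39.0 CPM, a log2 fold change of 1.11 ± 0.10 (SE), with an edgeR adjusted p of 1.5e-05. These 2 genes share a direction here and took opposite ones in the colon comparison. Stat5a was lower, with a log2 fold change of -0.47 ± 0.08 (SE) and an edgeR adjusted p of 0.0012, and the ratio was -0.32 in control and -0.62 in knockout cells. Stat6 was lower, from 289 and 281 CPM to 211 and 216 CPM, a log2 fold change of -0.42 ± 0.07 (SE), with an edgeR adjusted p of 5.8e-04. Stat5b did not pass, at 334 and 326 CPM against 335 and 329 CPM, with a log2 fold change of 0.01 and a 95% interval of -0.14 to 0.16. Stat5a made up 69.3% and 72.2% of the summed STAT5 counts in the TGF-β mix and 64.3% and 62.7% in the IL-23 mix, all above the colon libraries.

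**Figure D4:**
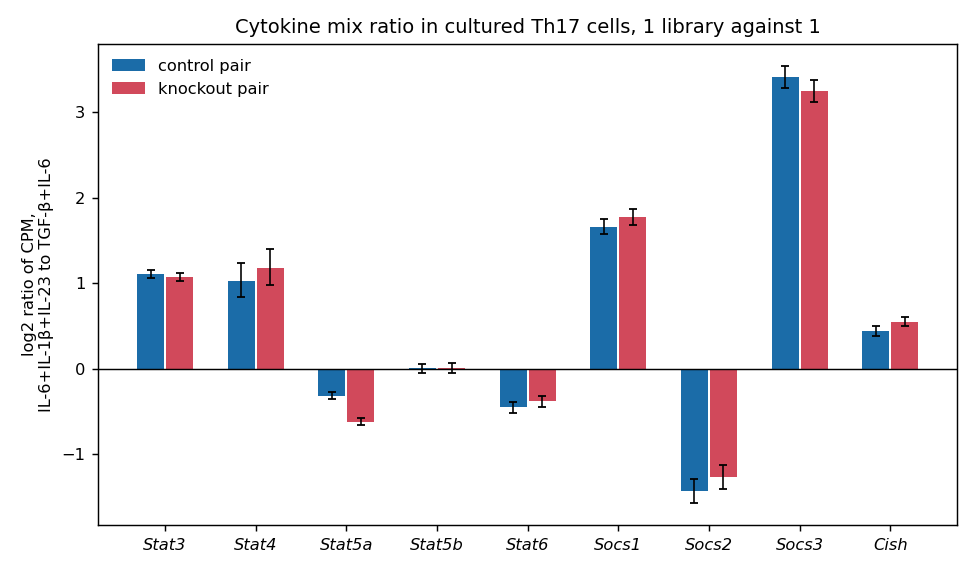
Log2 ratio of CPM, IL-23 mix to TGF-β mix, for each member in the control pair (blue) and the knockout pair (red) of cultured Th17 libraries; bars start at 0 and error lines are 95% counting intervals. Socs3 reaches 3.40 and 3.24, Socs2 is the lowest at -1.42 and -1.26, and Stat5b lies at 0.00 and 0.01.

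Across all 6 groups, scaled together, the members had different orders of level. Colon and culture come from separate count tables with unequal numbers of entries, so this order is a description. Stat3 was highest in control colon cells (1325 to 1339 CPM), followed by knockout colon cells (862 to 908 CPM), cells of the IL-23 mix (629 to 648 CPM) and cells of the TGF-β mix (300 CPM in both). Socs3 followed the same order, from 539 to 553 CPM in control colon cells, but its knockout colon libraries (303 to 341 CPM) overlapped the IL-23 mix libraries (303 to 326 CPM). The lowest Socs3 values were 30.6 and 31.9 CPM in the TGF-β mix. Socs2 had nearly the reverse order, from 77.9 to 89.0 CPM in the TGF-β mix down to 24.7 to 26.2 CPM in control colon cells. Stat4 was highest in knockout colon cells (160.2 to 177 CPM) and lowest in the TGF-β mix (15.7 to 18.6 CPM). Stat5a, like Socs2, had its highest values in the TGF-β mix, 689 to 775 CPM, and these overlapped the control colon libraries at 615 to 694 CPM.

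Per kilobase of exon, which allows genes to be compared, Socs1 (mean 233 CPM per kb) and Cish (215 CPM per kb) stood highest in control colon cells and Stat4 (31.9 CPM per kb) and Socs2 (2.67 CPM per kb) lowest. The ranges of Socs1 (169 to 296) and Cish (214 to 215) overlap, and per kilobase of a transcript in place of all exons Cish came first. In the TGF-β mix, Stat5a led at 96.5 CPM per kb in control cells and Socs3 stood at 10.6. In the IL-23 mix, Socs3 led at 113 CPM per kb of exon in control cells, and per kilobase of transcript Stat5a led in control and Cish in knockout cells.

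By correlation of log2 CPM over the 8 libraries, among 8168 genes, the genes most like Stat3 were Irs2 and Cnn2 (Pearson r 0.999 for both), and those most like Socs3 were Unc119 and Limk2 (0.998 and 0.997). Stat4 was most like Trib1 and St3gal6 (0.998 and 0.996), Stat5a like Phactr4 and Mars (0.987 and 0.982), Stat5b like Atp5h and Asna1 (0.998 and 0.997) and Stat6 like Creld2 and Tspan14 (0.9996 and 0.9989). Socs1 was most like Pnrc1 and Svbp (both 0.995), Socs2 like Angptl2 and Brwd1 (0.993 and 0.992) and Cish like Dcaf15 and Sqstm1 (both 0.999). These values describe 8 points that share their libraries and fall mostly into colon, 1 mix and the other mix.

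The genes around the members in the pathway were read from lists, in which a gene may stand more than once. Their colon counts are set against all genes tested, of which 19.6% rose and 19.9% fell with a median of 0.01. All list counts use TMM scaling alone. The lists were not counted on the other scales, where the colon median of all genes was 0.21 (library totals) and 0.35 (T cell markers). Of the 4 JAK kinase genes in colon, Jak2 rose (571 to 600 CPM in control and 1134 to 1174 CPM in knockout libraries, log2 fold change 0.98, edgeR adjusted p 5.5e-06) and Jak3, which pairs with the common gamma chain, fell (-0.41, edgeR adjusted p 0.0043). Jak1 (-0.04) and Tyk2 (-0.13) did not pass. Stat2, a further STAT gene, had a log2 fold change of -0.09 and did not pass. Of 4 other SOCS genes, Socs4 rose (0.27) and Socs7 fell (-0.41). Of 13 other negative regulators, 3 rose and 1 fell: Ptprc, the CD45 phosphatase, rose by 0.59, Ptpn2 by 0.43 and Pias2 by 0.35, and Ptpn1 was at -0.53.

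Of 24 receptor chains, 11 rose, 5 fell and 8 did not pass, with a median log2 fold change of 0.24, where 19.6% of all genes rose and 19.9% fell. Il2rb, the IL-2 receptor beta chain that activates STAT5, stood at 2256 and 2171 CPM in control and 1119 and 1020 CPM in knockout libraries (log2 fold change -1.05, edgeR adjusted p 4.7e-06). Both chains of the IL-6 receptor rose, Il6ra by 1.58 (2.44 and 2.43 CPM in control and 7.08 and 7.49 CPM in knockout libraries) and Il6st, which encodes gp130, by 0.74. Il12rb2, the chain that recruits STAT4, rose by 0.78, and Stat4 rose beside it. Of 14 cytokine genes tested of 16, 7 rose and 6 fell (median 0.28, against 0.01 for all genes). The largest changes were in Il3 (5.28), Il4 (3.66), Il5 (2.91) and Il13 (2.02), all higher in the knockout libraries, in which Stat6 was not.

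Genes known as targets of STAT3, STAT4, STAT5 and STAT6 were counted in colon with TMM scaling alone. They are set against the same shares of all genes, 19.6% higher and 19.9% lower. The lists were not tested against each other, and T cell marker scaling, which raised the log2 fold changes of all members, was not applied to them. Of 11 STAT5 targets, 7 fell and 3 rose (median -0.34), with Pim2, a survival kinase, at -0.89 and Prf1, perforin, at -0.77. Of 14 STAT3 targets, 8 fell and 3 rose (median -0.54), with Il17f at -1.98, Il17a at -1.84 and Batf at -1.16. Of 9 STAT4 targets, 4 fell and 1 rose (median -0.07), although Stat4 itself rose, and Ifng was at -0.40. Of 6 STAT6 targets tested of 7, 4 rose and 1 fell (median 1.5), although Stat6 itself fell under TMM scaling, and Gata3 was at 0.98. In the culture genotype comparison 2 genes of these lists passed: the STAT3 target Il17a (-0.90, edgeR adjusted p 0.0048) and the STAT5 target Gzmb (0.77, edgeR adjusted p 0.033).

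Between the mixes, Il6st fell by 3.21 on the log2 scale, from 95.2 and 92.4 CPM to 10.01 and 10.29 CPM, while Socs3, whose protein binds gp130, rose. Il2, whose product activates STAT5, fell by 5.26, from 1169 and 1234 CPM to 28.3 and 34.5 CPM. Socs2 fell beside it and Cish rose. Il12rb2 rose by 3.47 with Stat4, and Jak2 fell by 0.84. Of all genes, 35.8% passed as higher and 34% as lower between the mixes, with a median of 0.02. Of 21 receptor chains tested, 17 rose and 3 fell (median 0.88), and of 14 STAT3 targets 3 rose and 8 fell (median -0.34) although Stat3 rose.

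**Figure D5:**
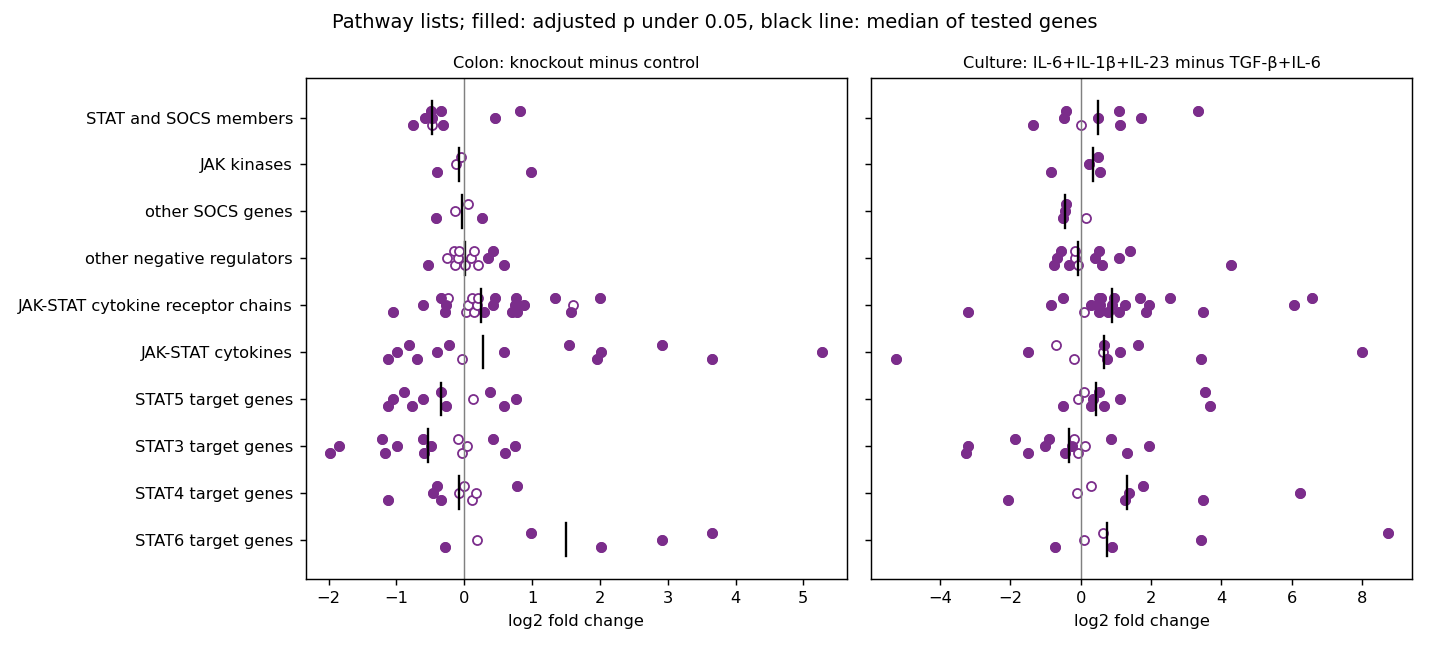
Log2 fold change of the tested genes of the pathway lists described in the text in colon (knockout minus control, left) and culture (IL-23 mix minus TGF-β mix, right), with TMM scaling. Points are genes, filled where the edgeR adjusted p was under 0.05, and black lines are medians over the list, such as -0.47 for the members, -0.54 for STAT3 targets and 1.5 for STAT6 targets in colon; with T cell marker scaling Stat6 turns to 0.02.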

How the data were processed

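RNA-seq gene counts from 4 colon and 4 cultured libraries were used. The authors deposited raw read counts per gene; per the submitters' processing notes, mm10, Trim Galore, Bowtie2, featureCounts, edgeR and DESeq2 were used, and neither the annotation release nor the use of strand is given in the sources used here. Without strand, reads of overlapping antisense genes cannot be told apart (Stat5a and Stat3 share 72 exonic bases, Stat6 and Nab2 share 40, Cish and Gm17041 share 479). Stat4 shares 1033 exonic bases with Gm28177, which held at most 4 counts in a colon library. Members were found by symbol. The 27 colon and 26 culture symbols turned into dates concern no member. The members, lists and tests were chosen with earlier results of these data known.

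Counts were tested with edgeR 4.0.16 (R 4.3.3): filterByExpr, TMM, quasi-likelihood test, Benjamini-Hochberg over all genes tested, threshold 0.05. The colon fit had 2 residual degrees of freedom, the culture fit (mix and genotype) 1 and the fit of all 8 libraries 3. Ratios of single libraries used a prior count of 2. Intervals are at 95%. Named genes were Rora, the members, up to 4 genes per pathway list with the smallest colon p and 2 per culture fit, and the 2 genes most like each member, with a mean of at least 10 CPM and no Gm or Rik name. Colon replicates differed by more than sampling noise (chi-square per gene 7.57 in control, 5.51 in knockout libraries). On simulated counts, a log2 change of 0.5 was recovered for 66% of genes in the colon comparison and 79% in the culture genotype comparison. It was recovered for 91% in the mix comparison and 37% in the comparison of colon with culture. The simulation gave all genes 1 common spread and changed 100 genes by this amount, none of them at low counts. Real genes differ in spread and far more of them changed in colon, so these rates may not hold for the real counts. Alternatives were library totals, DESeq2 size factors, DESeq2 1.42.0, no filter, left-out libraries, the replicate number as a term, T cell marker scaling and other model terms. Library totals for single-library ratios, and T cell marker scaling for colon against culture, were chosen after seeing the data. Some pathway genes are not reported here.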

Additional observations from a re-analysis of the deposited data

Results flagged for a closer look

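The genotype effect differed between colon and culture, by the test of the difference in edgeR, for 7 members, where 17.3% of 14886 genes passed. On the log2 scale the colon effect minus the culture effect was -0.57 for Stat3, -0.51 for Stat5a, -0.45 for Stat5b, -0.73 for Socs3 and -0.35 for Cish, and 0.61 for Stat4 and 0.94 for Socs2. The summed T cell markers stood at 13380 to 13850 CPM in control and 10730 to 10870 CPM in knockout colon libraries. In culture they stood at 8316 and 7968 CPM in control and knockout cells of the TGF-β mix and at 8551 and 8511 CPM in those of the IL-23 mix. With libraries scaled on these markers, Stat4, Socs2 and Socs3 passed the test of the difference, where 3562 of 14886 genes did. With library totals, Stat3, Stat4, Socs2 and Socs3 passed, where 2832 genes did. The calls of Cish and Stat5a under TMM also depended on single colon libraries, as given above.

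For 5 members the knockout to control ratio had opposite signs in the 2 mixes, with 1 library against 1 and no test of the difference. In the TGF-β mix the log2 ratio was 0.0012 for Stat3, 0.17 for Stat5a, -0.040 for Stat6, 0.061 for Socs3 and -0.062 for Cish. In the IL-23 mix it was -0.04, -0.13, 0.03, -0.10 and 0.05 in the same order. Stat5a was the one of these whose counting intervals left out 0 in both mixes.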

How the results depend on the processing

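In colon, 8 members passed with DESeq2 size factors and with DESeq2, 9 with no filter on low counts, and 8 to 9 with any one library left out, where 4198 to 5133 genes were called and the lone library of a genotype is assumed to vary like the other genotype. With T cell marker scaling 4 passed, where 6470 of 13101 genes were called, and Stat6 turned to 0.020. DESeq2 called 3658 genes in place of 5173. The samples share only a replicate number: deviations of equal numbers correlated at 0.153 across genes over 2 pairs, and with the replicate block 6230 genes and 9 members were called, Socs1 at -0.43 (edgeR adjusted p 8.7e-04). In culture, the genotype comparison called 4 genes, 9 with library totals, 9 with DESeq2 size factors, 7 with DESeq2, 15 in the fit of all 8 libraries, and 0 with no filter (472 at an unadjusted p under 0.05 in edgeR) or with genotype alone (3 such genes), and 0 members in each. Cish turned to 0.0013 with genotype alone. The mix comparison called 8 members under every alternative, and Stat5b, which never passed, turned to -0.00092 with DESeq2 size factors, -0.00092 with DESeq2 and -0.019 with no filter. In the comparison of colon with culture, 1676 to 2452 genes were called with a colon library left out (1676 without knockout replicate 2), 5 to 7 members passed, and Socs1 ran from -0.70 to 0.11, the latter without control replicate 2. Members called there were 4 with library totals (of 2832 genes called) and 3 with T cell marker scaling (of 3562 genes called). The cause of these shifts was not tested. Library totals moved no single-library ratio of a member past 2-fold. No library could be left out of the culture fit, which has 1 residual degree of freedom. The lowest count of a member in any library was 273, for Stat4 in knockout cells of the TGF-β mix (95% counting interval 242 to 307).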
